A study of Mus musculus with 2 samples.

Results

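The 10 genes described here encode the parts of nitric oxide, natriuretic peptide and cGMP signalling in the wall of the mouse abdominal aorta: the nitric oxide synthase *Nos3*, the soluble guanylyl cyclase subunits *Gucy1a1* and *Gucy1b1*, the cGMP-dependent kinase *Prkg1*, the phosphodiesterases *Pde5a* and *Pde3a*, the natriuretic peptide receptors *Npr1*, *Npr2* and *Npr3*, and the peptide precursor *Nppc*. They were chosen by name for their place in this pathway by a rule that uses no measured value, though with earlier results of these data known. Of the 33696 genes in the count matrices, these 10 were taken by symbol, and all 10 were present in both libraries.

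Cyclic GMP (cGMP) relaxes vascular smooth muscle. Endothelial nitric oxide synthase makes nitric oxide, which diffuses into neighbouring smooth muscle and binds a heme cyclase built from an alpha and a beta subunit. Natriuretic peptides raise cGMP by a separate route, through receptors that carry a cyclase domain of their own, while the clearance receptor Npr3 takes the peptides up. The kinase Prkg1 carries the signal to the contractile apparatus. Phosphodiesterases end it: Pde5a breaks down cGMP, and Pde3a breaks down cAMP and is inhibited by cGMP.

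The samples were abdominal aortas taken on day 28 from C57BL/6J male mice aged 5 months. Control mice had received normal saline, and AngII+HS mice angiotensin II by osmotic minipump with a high-salt drinking solution, a model of abdominal aortic aneurysm. Tissue was pooled, and each condition gave 1 droplet-based library (the series text speaks of 5 mice per pool, the protocol in the labels of 1 Control mouse and 2 AngII+HS mice). With 1 library per condition there is no spread between mice, so no difference below has a replicate check or a p-value.

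The retained cells numbered 10269 in the Control library (75294050 UMIs, median 7274 per cell) and 19734 in the AngII+HS library (80581691 UMIs, median 3065.5 per cell), a UMI being 1 captured RNA molecule. The barcode lists appear crossed, since that of Control has 24804 entries and that of AngII+HS 11448, each the size of the other matrix, and 67 barcodes stand in both lists. The matrices were used as recorded and an exchange of the matrices themselves, which would turn every direction below, was not tested. Vascular smooth muscle cells (VSMCs) made up 52.9% of Control and 4.50% of AngII+HS cells, and neutrophils 0.954% and 23.6%. Cell populations were formed without the 10 genes and the 40 other genes of the pathway list given further below. Vascular endothelial cells (VECs) numbered 796 and 1176, of which 487 and 392 were arterial-like, 141 and 444 capillary-like, and 168 and 340 venous-like. There were 137 and 156 lymphatic endothelial cells (LECs), 5430 and 888 VSMCs, 43 and 96 pericytes, and 2490 and 4151 fibroblasts. Among the fibroblasts, 317 and 273 cells were assigned to a Pi16 program, 280 and 1697 to a Postn program and 1893 and 2181 to neither. The 5 markers of the Postn program summed to 974 CPM in its AngII+HS cells, beside 467 CPM in the Pi16 program and 544 CPM in fibroblasts of neither program in that library. In Control they summed to 76.0 CPM in the cells of the Postn clusters, below the 175 and 157 CPM of the other fibroblasts, so the Control cells do not bear out the name. *Postn* itself was 409 CPM in the AngII+HS cells of the program and 346 and 354 CPM in the other fibroblasts. The pericytes also held VSMC markers, summing to 27463 CPM in Control and 14673 CPM in AngII+HS, while their 8 pericyte markers summed to 3687 and 7522 CPM. In VSMCs the VSMC markers summed to 28085.5 and 36712 CPM and the pericyte markers to 5672 and 6096 CPM. The sums thus do not set Control pericytes apart from VSMCs. *Rgs5* was higher in Control VSMCs (5368 CPM, against 2107 CPM), and every other pericyte marker was higher in Control pericytes. The part of these marker differences in the pericyte ratios was not tested. Neutrophil markers were higher in AngII+HS in each class, from 5.90 to 191 CPM summed in VSMCs and from 9.05 to 107 CPM in fibroblasts. Fibroblast markers in VSMCs summed to 1571 and 3806 CPM. Most of this was *Col1a1* (539 and 1468 CPM) and *Col3a1* (1005 and 2145 CPM), with *Dcn* at 18.2 and 107 CPM. Neither the origin of these transcripts nor their part in the results was tested.

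Levels are given as CPM, the UMIs of a gene summed over the cells of a population and scaled to a common total of all UMIs of those cells. Paired values give Control first and AngII+HS second. Ratios are AngII+HS over Control on the log2 scale, with 95% intervals that cover counting error only. T and B cells, 232 and 2111 with a median of 3788 and 2142 UMIs, serve as the background of free RNA, beside medians of 4321 and 3907.5 UMIs in VECs and 9716.5 and 6987.5 UMIs in VSMCs. In VECs, 9 of the 10 genes had at least 20 UMIs, and 4 were lower by a log2 ratio of at least 1 (*Nos3*, *Gucy1a1*, *Gucy1b1* and *Pde5a*), against 6.03% of all genes with that many UMIs. *Gucy1b1* and *Pde5a* stood in VECs near or below their level in T and B cells (8.31 and 3.16 CPM for *Gucy1b1*, 11.4 and 19.0 CPM for *Pde5a*), and *Gucy1a1* in VECs turned to 0.59 (interval -0.56 to 1.84) when cells were thinned to 1000 UMIs. For *Pde5a* in AngII+HS, macrophages held 3.31 CPM and neutrophils 5.15 CPM, less than T and B cells. None of the 9 was higher by as much, against 8.5% of all genes. The median ratio was -0.55 over the 9 genes and 0.05 over all genes. In VSMCs, 1 of 10 genes (*Nppc*) was lower past that ratio, against 11.5% of all genes, and none was higher, against 6.5%. Their median was -0.32, beside -0.05 for all genes. In pericytes, none of the 5 genes with enough UMIs passed the ratio in either direction, against 10.0% of all genes higher and 6.69% lower, and the medians were -0.06 and 0.07. In fibroblasts, *Npr3* was higher past the ratio, against 7.37% of all genes, and *Nos3* and *Npr1* were lower, against 8.84%. The *Npr1* ratio there was -0.24 when cells were thinned to 1000 UMIs. The fibroblast medians were -0.03 for the 10 genes and -0.16 for all genes.

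**Figure D1:**
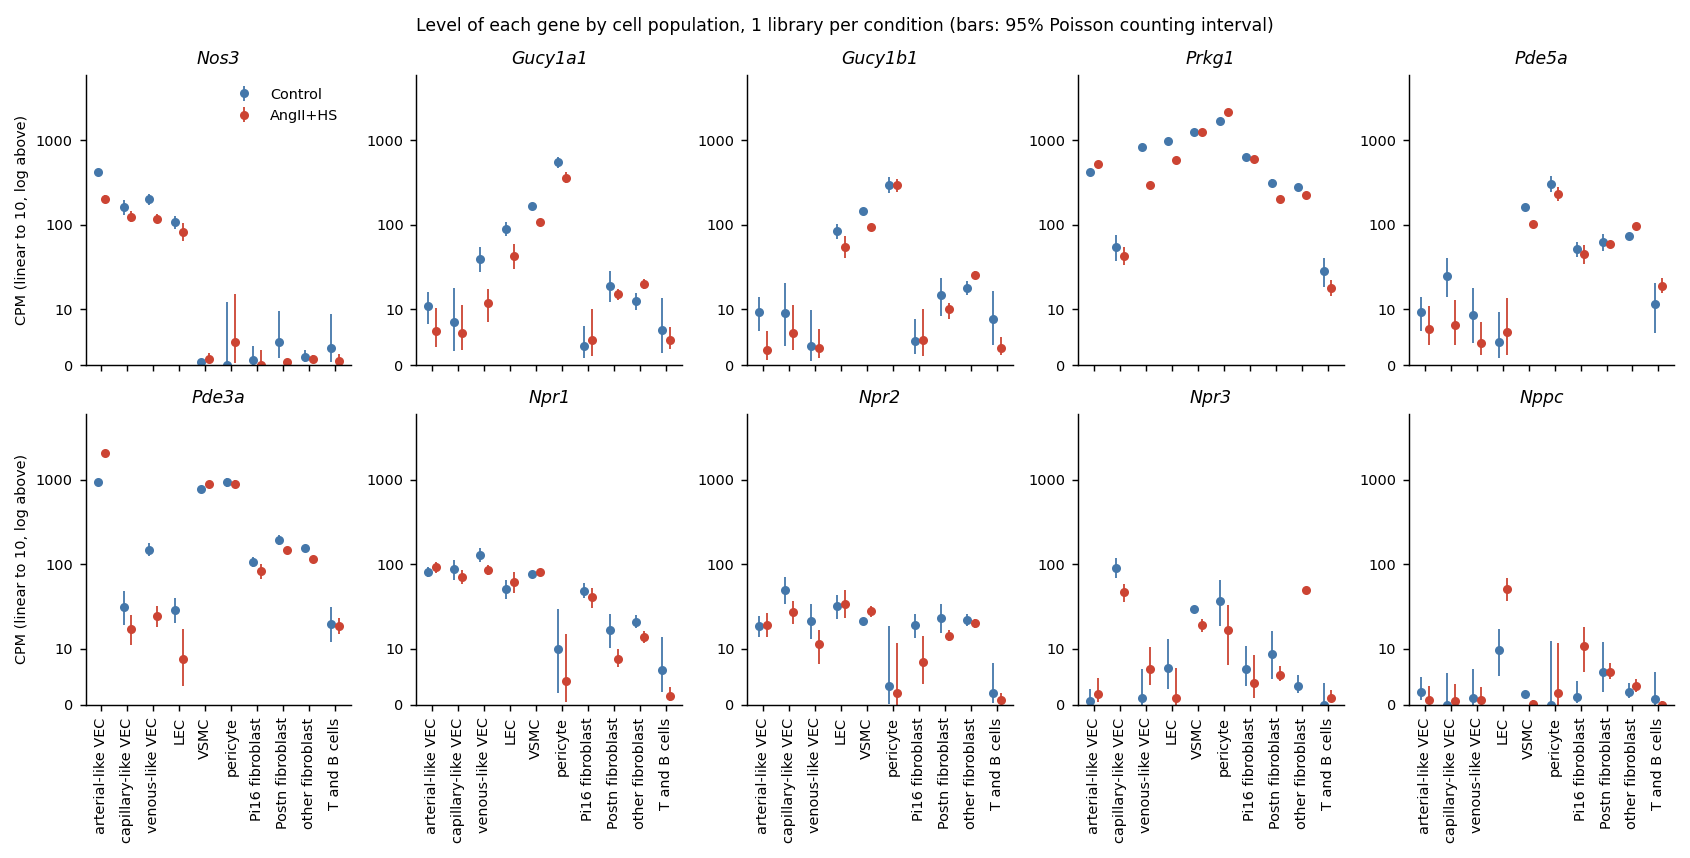
Level in CPM (y axis, linear to 10 and logarithmic above) of each of the 10 genes in each cell population (x axis), 1 point per library, with bars for the 95% Poisson interval. *Nos3* stands above background in the endothelial populations only, while *Prkg1* and *Pde3a* are between 783 and 2170 CPM in VSMCs and pericytes of both libraries.

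The counts that follow go by the interval alone, and no share over all genes was computed to set beside them. VECs had 1 gene with an interval above 0 and 5 below, and VSMCs 2 above and 5 below. Pericytes had 1 above and 1 below, and fibroblasts 4 above and 5 below. Scaling by TMM factors moved the fibroblast ratios of all genes up by 0.19 and changed that split to 5 above and 2 below. In the other classes the same scaling moved ratios by at most 0.03 in either direction.

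**Figure D2:**
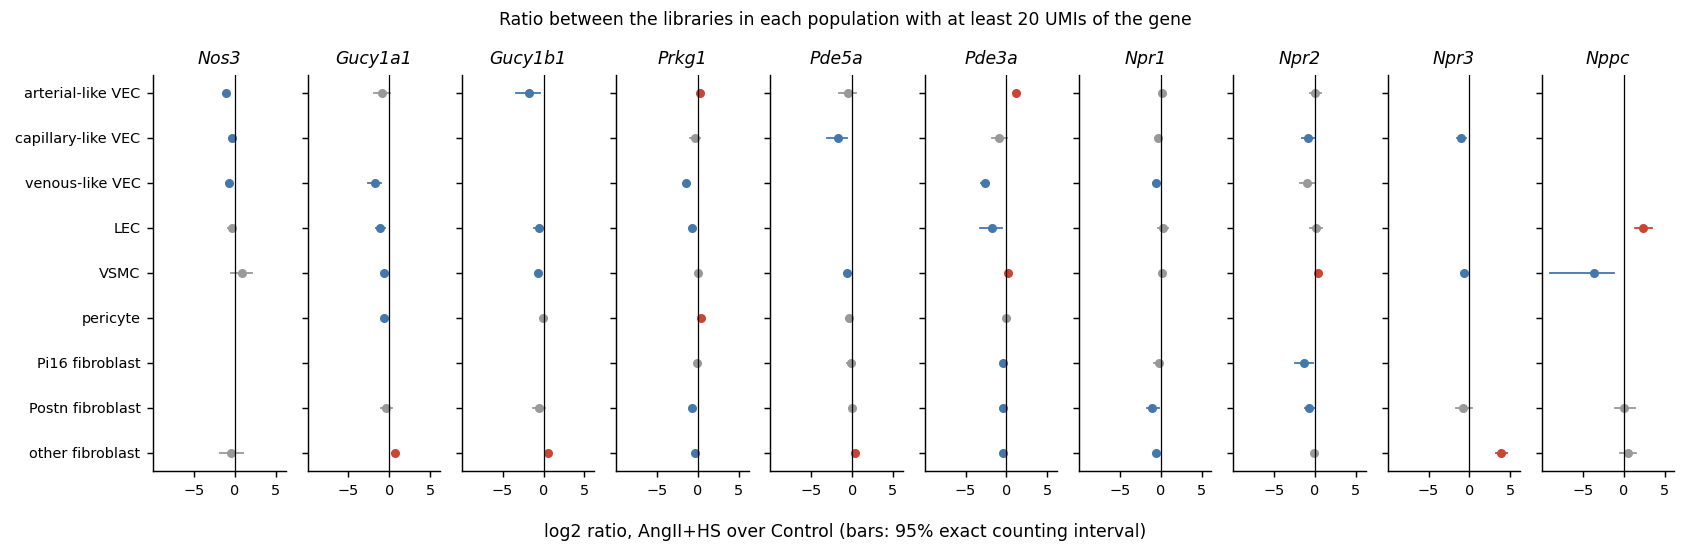
Log2 ratio of AngII+HS over Control (x axis) for each of the 10 genes in each cell population with at least 20 UMIs of that gene (y axis); points are ratios and bars their 95% counting intervals. *Nos3* lies left of 0 in the 3 VEC subtypes, and *Npr3* lies far to the right in fibroblasts of neither program.

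*Nos3* (chr5:24569787-24589475, plus strand, GRCm39) encodes the endothelial synthase. Its level in VECs was 331 CPM in Control and 150.5 CPM in AngII+HS, a log2 ratio of -1.14 (interval -1.26 to -1.01). It was lower in all 3 subtypes, at 417 and 203 CPM in arterial-like, 199 and 118 CPM in venous-like and 160 and 125 CPM in capillary-like VECs. The ratios were -1.04 (interval -1.20 to -0.88), -0.76 (interval -1.04 to -0.48) and -0.36 (interval -0.71 to -0.004). The capillary-like ratio was -0.09 after thinning to 1000 UMIs. In Control, arterial-like VECs stood first, while the intervals of venous-like (171 to 231 CPM) and capillary-like (131 to 194 CPM) cells overlapped. In AngII+HS the venous-like and capillary-like levels overlapped as well. LECs held 107 and 82.1 CPM, with an interval of the ratio from -0.82 to 0.05. Outside the endothelium *Nos3* stood at 0.570 and 1.07 CPM in VSMCs and 1.70 and 0.769 CPM in fibroblasts, at or near the 3.12 and 0.790 CPM of T and B cells, so the fibroblast ratio counted above concerns a background level.

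A *Nos3* UMI was found in 64.2% of Control and 40.2% of AngII+HS VECs, and in 27.2% and 11.8% when every cell was thinned to 1000 UMIs. In T and B cells the unthinned shares were 1.29% and 0.189%. Among the VEC subclusters, *Nos3* was highest in the arterial-like cells led by *Sema3g* and *Dkk2*, at 506 and 389 CPM. In the other arterial-like subclusters it was 423 and 205 CPM where *Ptprj* and *Pde3a* led, and 381 and 148 CPM where *Gadd45b* and *Sfrp1* led. The larger venous-like subcluster, led by *Mctp1* and *Csf3*, held 138 and 114 CPM, with an interval of the ratio that spans 0 (-0.64 to 0.11). The smaller one, led by *Adgrg6* and *Adarb2*, held 330 and 147 CPM. The mix of subtypes also differed, with capillary-like cells at 17.7% of Control and 37.8% of AngII+HS VECs. With a stricter cell filter they were 128 of 748 Control and 219 of 937 AngII+HS VECs. With the subtypes weighted equally the VEC ratio of *Nos3* was -0.80.

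**Figure D3:**
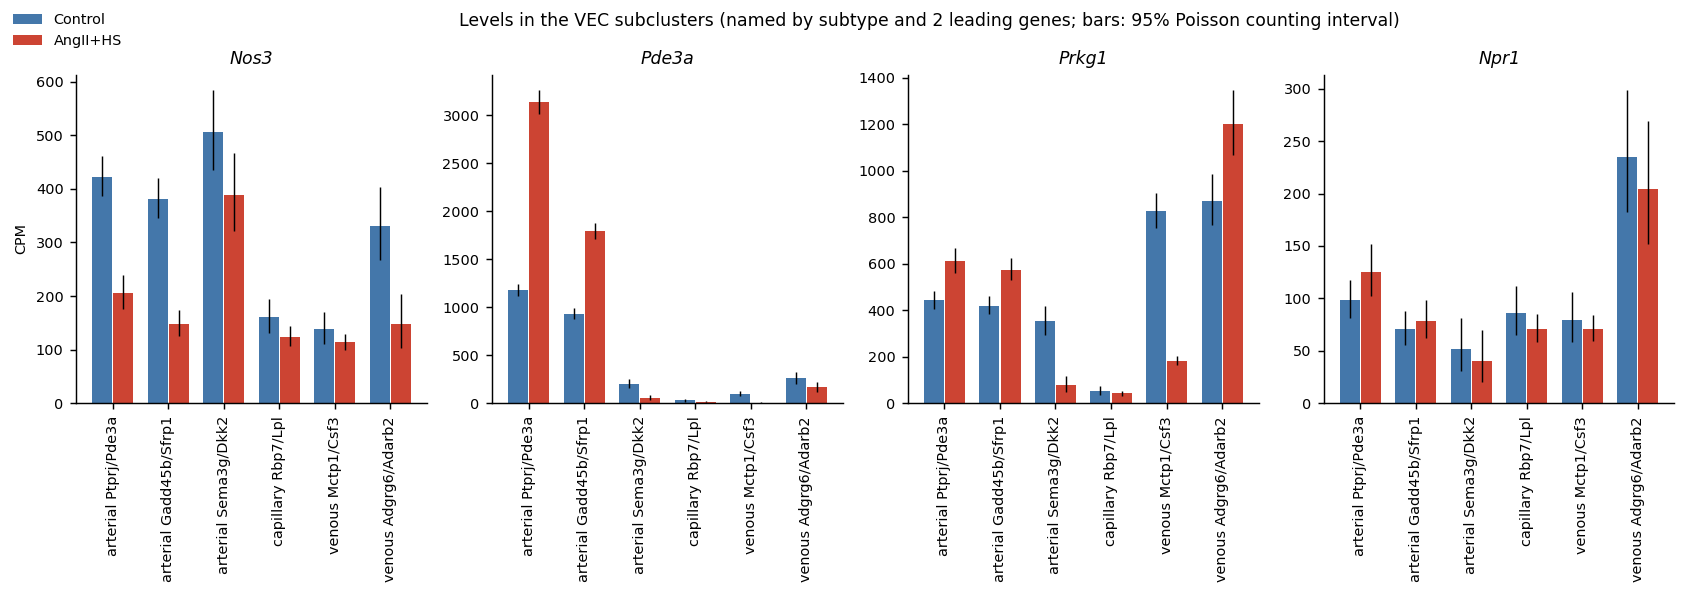
Level in CPM (y axis, linear) of 4 of the genes in the 6 named VEC subclusters (x axis) of each library; bars are levels and error bars 95% Poisson intervals. *Nos3* is lower in AngII+HS in each subcluster, and *Pde3a* is higher in the subclusters led by *Ptprj* and by *Gadd45b* and lower in the others.

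*Gucy1a1* (chr3:81999733-82053216, minus strand, GRCm39) and *Gucy1b1* (chr3:81939312-81982022, minus strand), the alpha and beta subunit genes of the nitric oxide receptor, lie 17.7 kb apart on the same strand. Their highest levels were in pericytes and VSMCs. In VSMCs *Gucy1a1* stood at 166 CPM in Control and 106 CPM in AngII+HS (log2 ratio -0.64, interval -0.75 to -0.53). *Gucy1b1* stood at 147 and 92.9 CPM (-0.66, interval -0.78 to -0.54). The number of *Gucy1a1* UMIs for each *Gucy1b1* UMI was 1.13 in Control (interval 1.09 to 1.16) and 1.15 in AngII+HS VSMCs (1.03 to 1.28), intervals that overlap. The UMIs were spread over many cells, with *Gucy1a1* found in 71.0% and 43.4% of VSMCs and in 2.59% and 0.995% of T and B cells. After thinning to 1000 UMIs the VSMC shares were 14.3% and 9.30%.

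Both subunits were lower in each of the 5 VSMC subclusters with at least 40 cells in both libraries, with intervals below 0 in 3 of the 5. In the cells led by *Rgs5* and *Acta2*, *Gucy1a1* was 197 and 112 CPM and *Gucy1b1* 166 and 103 CPM. In the cells led by *Sost* and *Mylk4*, *Gucy1b1* was 177 and 88.9 CPM. Pericytes held the highest *Gucy1a1* level, at 550 and 360 CPM (log2 ratio -0.61, interval -0.93 to -0.29), while *Gucy1b1* stood there at 297 and 292 CPM (-0.02, interval -0.42 to 0.38). The pericyte subunit ratio was 1.85 in Control (interval 1.42 to 2.43) and 1.23 in AngII+HS (0.98 to 1.55), intervals that overlap. These values rest on 43 and 96 cells. Adding an unnamed mural subcluster led by *Sparcl1*, *Notch3* and *Pln* moved the pericyte *Gucy1a1* ratio to -0.04 and the *Gucy1b1* ratio to 0.61. That subcluster held *Gucy1b1* at 138 and 244 CPM (0.82, interval 0.49 to 1.16). Its *Gucy1a1* level was 387 and 451 CPM, with an interval of the ratio from -0.004 to 0.44.

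Fibroblasts held far less of both subunits. *Gucy1a1* was 11.4 CPM in Control and 16.8 CPM in AngII+HS fibroblasts (0.56, interval 0.25 to 0.88), but the ratio was 0.006 without integration of the libraries. By program, the *Gucy1a1* ratio was 0.67 (interval 0.29 to 1.07) in fibroblasts of neither program. It was 0.42 in the Pi16 program and -0.34 in the Postn program, both with intervals that span 0. *Gucy1b1* was 14.5 and 16.7 CPM in all fibroblasts, with an interval that spans 0 (0.20, interval -0.08 to 0.50). In fibroblasts of neither program it was 17.8 and 25.3 CPM (0.51, interval 0.18 to 0.84), which turned to -0.45, with an interval that spans 0, without integration of the libraries. In LECs *Gucy1a1* was 89.7 and 42.2 CPM and *Gucy1b1* 83.1 and 55.1 CPM. In venous-like VECs *Gucy1a1* was 39.4 and 11.7 CPM (-1.76), and the ratio was -0.09 after thinning to 1000 UMIs. The larger venous-like subcluster held 41.5 and 4.54 CPM (-3.19, interval -4.48 to -2.05). The smaller one held 35.1 and 69.5 CPM, with an interval of the ratio from -0.22 to 2.28. The sum of the 6 LEC markers in venous-like VECs was 150 and 73.2 CPM, most of it in Control from *Prox1* alone, at 118 and 28.7 CPM. Of the 6, 2 were higher in AngII+HS (*Flt4* at 20.3 and 30.1 CPM, and *Pdpn*). *Mmrn1* was 3.38 and 0.898 CPM, against 1898 and 2016 CPM in LECs. The part of these transcripts in the *Gucy1a1* difference was not tested. In arterial-like and capillary-like VECs both subunits were under 11 CPM in both libraries, near the 3.16 to 8.31 CPM of T and B cells.

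The start-site regions of *Gucy1a1*, *Gucy1b1* and *Pde5a*, which make and break down cGMP and were lower in VSMCs with log2 ratios of -0.64, -0.66 and -0.67, are given here from RefSeq on GRCm38.p6, from 250 bases before to 50 bases after the transcription start and 5′ to 3′ on the strand of the gene. Capitals mark matches to the GC box GGGCGG or the CCAAT box CCAAT, searched on both strands. *Gucy1a1* (chr3:82145601-82145900, minus strand; a second listed start is not shown), *Gucy1b1* (chr3:82074662-82074961, minus strand) and *Pde5a* (chr3:122728908-122729207, plus strand) read as follows.
Gucy1a1: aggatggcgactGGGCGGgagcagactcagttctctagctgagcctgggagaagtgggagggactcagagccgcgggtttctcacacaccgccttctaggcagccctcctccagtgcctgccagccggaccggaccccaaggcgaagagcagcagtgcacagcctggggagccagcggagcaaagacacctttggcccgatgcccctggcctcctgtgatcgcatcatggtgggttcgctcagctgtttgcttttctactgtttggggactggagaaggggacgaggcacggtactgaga
Gucy1b1: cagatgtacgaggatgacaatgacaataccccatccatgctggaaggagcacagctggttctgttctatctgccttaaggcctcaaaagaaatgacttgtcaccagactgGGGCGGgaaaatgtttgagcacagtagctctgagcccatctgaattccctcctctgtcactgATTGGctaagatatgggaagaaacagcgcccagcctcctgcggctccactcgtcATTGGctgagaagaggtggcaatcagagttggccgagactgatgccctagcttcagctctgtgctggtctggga
Pde5a: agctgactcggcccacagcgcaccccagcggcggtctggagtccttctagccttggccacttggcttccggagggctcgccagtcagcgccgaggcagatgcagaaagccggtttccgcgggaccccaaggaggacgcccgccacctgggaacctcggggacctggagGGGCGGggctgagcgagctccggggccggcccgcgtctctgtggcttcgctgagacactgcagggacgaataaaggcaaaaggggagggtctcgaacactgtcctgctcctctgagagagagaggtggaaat
Each of the 3 windows shown holds 1 GC box, which 35.7% of all 32851 promoters in the table hold, and *Gucy1b1* also holds 2 CCAAT boxes, found in 37.4% of promoters. None holds TATAAA, present in 13.6% of promoters, or a CArG box, the element bound by serum response factor, present in 1.63%. The second listed start of *Gucy1a1* holds none of these motifs. *Npr3*, also lower in VSMCs at a log2 ratio of -0.66, has a CCAAT box and no GC box in its window.

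**Figure D4:**
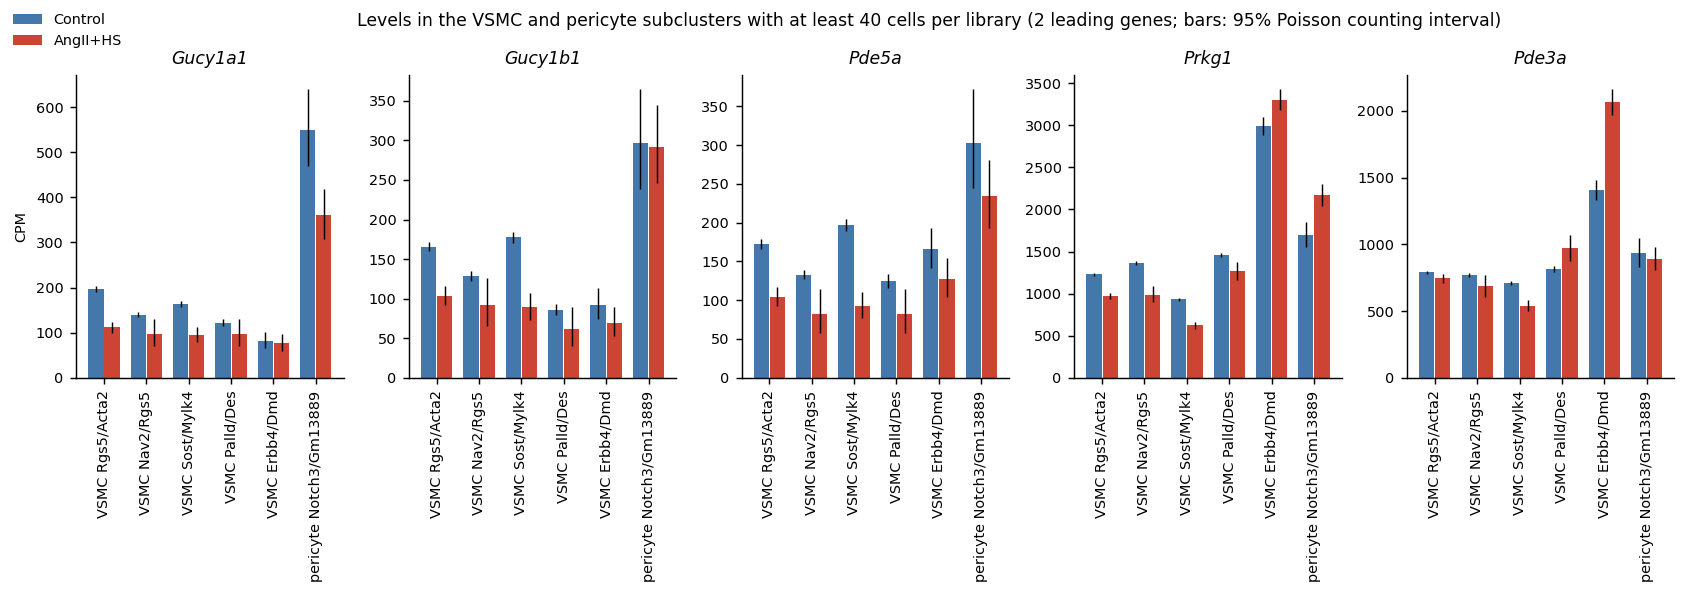
Level in CPM (y axis, linear) of the cyclase subunits, the kinase and the phosphodiesterases in the VSMC and pericyte subclusters with at least 40 cells per library (x axis); bars are levels and error bars 95% Poisson intervals. *Gucy1a1*, *Gucy1b1* and *Pde5a* are lower in AngII+HS in the VSMC subclusters, while *Prkg1* is highest in the subcluster led by *Erbb4* and *Dmd*.

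*Prkg1* (chr19:30541889-31742479, minus strand, GRCm39), the kinase that cGMP activates in smooth muscle, is a long gene of 1201 kb. Summed over VSMCs its level was 1261 CPM in Control and 1252 CPM in AngII+HS, a log2 ratio of -0.01 (interval -0.04 to 0.02). Within subclusters the levels were not equal. *Prkg1* was lower in 4 of the 5 larger VSMC subclusters, at 1227 and 974 CPM (led by *Rgs5* and *Acta2*), 1363 and 987 CPM (*Nav2*), 930 and 622 CPM (*Sost* and *Mylk4*) and 1458 and 1263 CPM (*Palld* and *Des*). The remaining subcluster, led by *Erbb4*, *Dmd* and *Prkg1* itself, held 2991 and 3306 CPM.

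That subcluster made up 6.24% of Control and 36.0% of AngII+HS VSMCs, and 1.83% and 12.7% of their UMIs. Its cells were shallow, with a median of 2668 and 2228.5 UMIs and 10.9% and 8.25% mitochondrial UMIs, and held 73375 and 101378 CPM of the nuclear RNA *Malat1*, against 44155 and 50832 CPM over all VSMCs. Without it the VSMC ratio of *Prkg1* was -0.37. The part of cell quality in this pattern was not tested.

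In pericytes *Prkg1* was 1697 CPM in Control and 2170 CPM in AngII+HS (0.35, interval 0.20 to 0.51). Arterial-like VECs held 422 and 520 CPM (0.30, interval 0.18 to 0.42) and capillary-like VECs 53.9 and 42.8 CPM. Among VECs the venous-like cells differed most, at 841 and 295 CPM (-1.51, interval -1.66 to -1.36), but their ratio was -0.29 with equal weight per cell. The venous-like subclusters went opposite ways, from 827 to 183 CPM in the larger and from 870 to 1202 CPM in the smaller. Among arterial-like cells, those led by *Sema3g* and *Dkk2* held 353 and 77.2 CPM (-2.19), while the other arterial-like subclusters held more in AngII+HS, at 444 and 612 CPM and at 421 and 576 CPM. LECs held 977 and 578 CPM. In fibroblasts *Prkg1* was 365 and 232 CPM (-0.65, interval -0.71 to -0.59), and the ratio was -0.13 with equal weight per cell. It was highest in the Pi16 program, at 637 and 606 CPM (-0.07, interval -0.20 to 0.06). That program held 21.9% of Control and 5.32% of AngII+HS fibroblast UMIs. The *Prkg1* ratio was -0.66 (interval -0.81 to -0.50) in the Postn program and -0.34 (interval -0.43 to -0.25) in fibroblasts of neither program. The Postn subcluster led by *Thbs2* and *Comp* held 322 and 294 CPM (-0.13, interval -0.29 to 0.03). The other Postn subclusters had hardly any Control cells (3 and 391 cells, and 0 and 92 cells). Over 12 alternatives, among them equal weight of subtypes, the fibroblast *Prkg1* ratio ran from -0.90 to -0.13. Beyond that, the part of this mix in the fibroblast ratio was not tested. T and B cells held 28.1 and 18.0 CPM.

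*Pde5a* (chr3:122522594-122653023, plus strand, GRCm39), the cGMP-specific phosphodiesterase that sildenafil inhibits, had its highest levels in pericytes and VSMCs. In VSMCs it was 162 CPM in Control and 102 CPM in AngII+HS (-0.67, interval -0.78 to -0.55). It was lower in all 5 larger VSMC subclusters with intervals below 0, the ratios running from -1.09 in the *Sost* and *Mylk4* cells to -0.38 in the shallow *Erbb4* and *Dmd* cells. Pericytes held 303 and 234 CPM, with an interval of the ratio from -0.79 to 0.04. Fibroblasts held 67.1 and 75.5 CPM (0.17, interval 0.04 to 0.30), and those of neither program 73.4 and 95.9 CPM (0.39, interval 0.22 to 0.55). In VECs the levels of 11.7 and 5.75 CPM were no higher than the 11.4 and 19.0 CPM of T and B cells by more than counting error. Other immune cells of AngII+HS held less than T and B cells, with 3.31 CPM in macrophages, 5.15 CPM in neutrophils and 1.45 CPM in dendritic cells. The T and B cell level of *Pde5a* in AngII+HS is therefore not shared by other immune cells.

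*Pde3a* (chr6:141194888-141453174, plus strand, GRCm39) encodes the phosphodiesterase through which cGMP acts on cAMP. Arterial-like VECs held 942 CPM in Control and 2060 CPM in AngII+HS, a log2 ratio of 1.13 with an interval that starts at 1.06. Venous-like VECs held 149 and 24.2 CPM (-2.62, interval -3.10 to -2.15) and capillary-like VECs 30.8 and 16.9 CPM. The share of arterial-like cells with a *Pde3a* UMI was 81.1% and 80.4%, and 50.2% and 68.7% after thinning, against 7.33% and 4.41% unthinned in T and B cells. The arterial-like VECs were not uniform. *Pde3a* was 1178 and 3134 CPM (1.41) in the subcluster led by *Ptprj* and *Pde3a*, 931 and 1788 CPM (0.94) in that led by *Gadd45b* and *Sfrp1*, and 202 and 57.0 CPM (-1.83) in that led by *Sema3g* and *Dkk2*.

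In venous-like VECs *Pde3a* was 96.3 and 6.56 CPM in the larger subcluster and 260 and 168 CPM in the smaller. The 9 arterial markers summed to 2997 CPM in Control and 1306 CPM in AngII+HS venous-like cells. Most of this was *Mgp* (1853 and 780 CPM) and *Eln* (835 and 200 CPM), and 4 of the 9 were higher in AngII+HS. *Gja5* was 2.25 and 0.898 CPM there, against 548 and 537 CPM in arterial-like VECs. The part of these transcripts in the venous-like ratios was not tested. In VSMCs *Pde3a* was 783 and 878 CPM (0.17, interval 0.13 to 0.21). Without the shallow *Erbb4* and *Dmd* cells, where it was 1407 and 2065 CPM, that ratio was -0.13. In pericytes the levels were 933 and 892 CPM (-0.06, interval -0.29 to 0.16). Fibroblasts held 150.2 and 128 CPM (-0.23, interval -0.32 to -0.14). LECs held 28.5 and 8.21 CPM.

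*Npr1* (chr3:90356458-90373748, minus strand, GRCm39), the receptor of atrial and B-type natriuretic peptides, was found in both vascular classes at similar levels. VECs held 91.9 and 83.8 CPM (-0.13, interval -0.33 to 0.06) and VSMCs 76.1 and 81.1 CPM (0.09, interval -0.04 to 0.22), so neither difference exceeded counting error. Within VECs the highest level was that of the smaller venous-like subcluster, at 235 and 204 CPM (-0.20, interval -0.76 to 0.35). The larger one held 79.7 and 71.1 CPM (-0.16, interval -0.65 to 0.34). Venous-like VECs as a whole held 130 and 85.7 CPM (-0.60, interval -0.94 to -0.25). The smaller subcluster made up 70 of 168 Control and 90 of 340 AngII+HS venous-like cells, and the part of this mix was not tested. Pericytes held 3 UMIs in Control and 2 in AngII+HS, too few for a ratio. Fibroblasts were lower in AngII+HS, at 26.3 and 12.4 CPM (-1.08, interval -1.33 to -0.83), but the ratio was -0.24 after thinning to 1000 UMIs. Here too the mix of programs differed between the libraries. The Pi16 program held the most, at 48.6 and 40.3 CPM (-0.27, interval -0.78 to 0.23), and made up 12.7% of Control and 6.58% of AngII+HS fibroblasts. The Postn program held 16.5 and 8.18 CPM (-1.02, interval -1.72 to -0.24) and the fibroblasts of neither program 20.7 and 13.7 CPM (-0.59, interval -0.94 to -0.24). In the Postn subcluster led by *Thbs2* and *Comp* the levels were 14.4 and 8.19 CPM, with an interval that spans 0 (-0.81, interval -1.63 to 0.08).

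*Npr2* (chr4:43631339-43651436, plus strand, GRCm39), the receptor of C-type natriuretic peptide, was low in every class. VSMCs held 21.3 and 27.8 CPM (0.39, interval 0.15 to 0.61), with intervals above 0 in the cells led by *Rgs5* and *Acta2* (21.5 and 31.3 CPM) and in the shallow *Erbb4* and *Dmd* cells (20.1 and 40.0 CPM). Capillary-like VECs held 49.3 and 27.3 CPM (-0.86, interval -1.55 to -0.14), the highest Control level, though its interval of 33.7 to 69.6 CPM overlapped that of LECs (22.6 to 43.5 CPM). The capillary-like ratio was -0.05 after thinning to 1000 UMIs. Fibroblasts held 21.4 and 16.4 CPM (-0.38, interval -0.63 to -0.13), and that ratio too was -0.05 after thinning. Pericytes held 1 UMI in each library.

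*Npr3* (chr15:11839982-11907373, minus strand, GRCm39), the clearance receptor, gave the largest difference in fibroblasts. Its level was 4.79 CPM in Control and 25.3 CPM in AngII+HS, a log2 ratio of 2.40 (interval 1.96 to 2.87). The difference lay in the fibroblasts of neither program, at 3.43 and 49.1 CPM (3.84, interval 3.22 to 4.54). The Pi16 program held 6.32 and 3.81 CPM and the Postn program 9.09 and 5.37 CPM, with intervals of both ratios spanning 0. A UMI was found in 0.951% of Control and 12.4% of AngII+HS fibroblasts of neither program, and in 0.338% and 3.82% after thinning. T and B cells held it in 0 of 232 Control cells (3 of 232 cells, the limit taken for a count of 0, is a share of 1.29%) and in 0.284% of AngII+HS cells.

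Within that class *Npr3* was concentrated in subclusters marked by *Rbp4*. Cells led by *Dio2* and *Rbp4* held 2.66 and 85.7 CPM (7 and 391 UMIs), and cells led by *Rbp4* and *F3* held 3.49 and 114 CPM (3 and 120 UMIs). The log2 ratios were 5.01 and 5.03. Shallow cells led by *Rbp4* and *Plac9* held 3 and 14 UMIs, or 5.63 and 24.4 CPM, with a log2 ratio of 2.12 and a counting interval of 0.28 to 4.56. The largest subcluster, led by *Sfrp4* and *Clec3b*, held 3.79 and 5.70 CPM, with an interval of the ratio from -0.58 to 1.93. An unnamed subcluster led by *Fst* and *Fhl2*, kept out of the fibroblast class and mostly from the AngII+HS library (20 and 402 cells), held 64.6 and 114 CPM. The fibroblast ratio depends on how the libraries were joined. Merged without integration it was 0.13, and 693 of the 742 AngII+HS cells led by *Dio2* and *Rbp4*, with 195 of the 207 led by *Rbp4* and *F3*, then fell into unnamed subclusters outside the class.

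**Figure D5:**
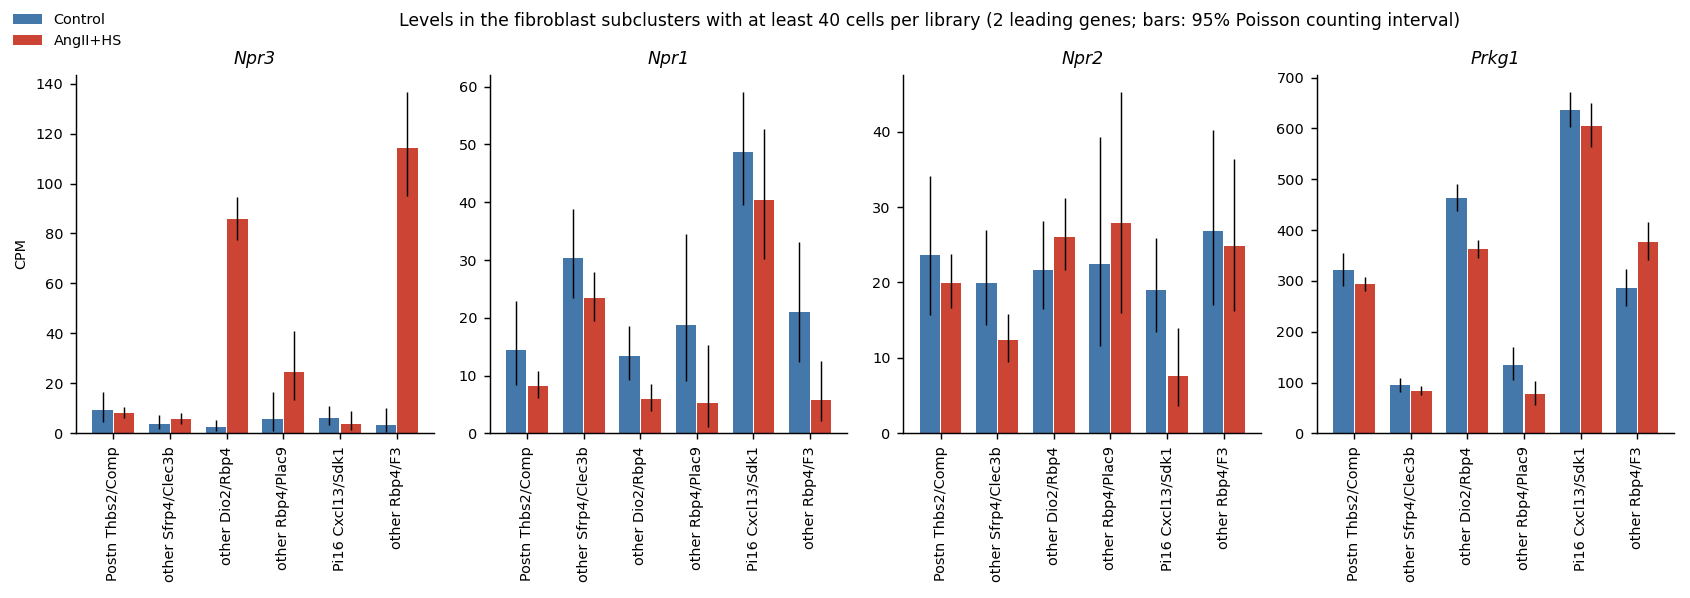
Level in CPM (y axis, linear) of the natriuretic peptide receptors and *Prkg1* in the fibroblast subclusters with at least 40 cells per library (x axis); bars are levels and error bars 95% Poisson intervals. *Npr3* reaches 85.7 and 114 CPM in AngII+HS cells marked by *Rbp4*, while in Control it stays under 10 CPM in every subcluster shown.

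Outside the fibroblasts *Npr3* was lower in AngII+HS in capillary-like VECs and VSMCs. Capillary-like VECs held the highest level of the endothelium, at 90.9 and 46.1 CPM (-0.98, interval -1.50 to -0.46), while arterial-like VECs held 2 and 4 UMIs and venous-like VECs 1 and 14 UMIs. With a stricter cell filter the capillary-like ratio was -0.31, on 128 and 219 cells. VSMCs held 29.6 and 18.7 CPM (-0.66, interval -0.94 to -0.39). Pericytes held 36.7 and 16.6 CPM on 11 and 8 UMIs, with an interval that spans 0.

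*Nppc* (chr1:86594013-86598301, minus strand, GRCm39), the precursor of C-type natriuretic peptide, was rare. LECs held 9.78 CPM in Control and 50.4 CPM in AngII+HS (2.37, interval 1.42 to 3.42), but the 43 AngII+HS UMIs came from 10 of 156 cells, with up to 17 in a cell, and the share of LECs with a UMI was 5.11% and 6.41%. After thinning to 1000 UMIs the ratio was 0.15. VSMCs held 106 UMIs in 87 of 5430 Control cells and 1 UMI among 888 AngII+HS cells, which is 1.95 and 0.154 CPM (-3.67, interval -8.98 to -1.16). Fibroblasts held 2.55 and 4.94 CPM (0.95, interval 0.31 to 1.65), with 1.46 and 10.7 CPM in the Pi16 program (3 and 14 UMIs). The Postn program held more UMIs, 7 and 71, at 5.78 and 5.86 CPM (0.02, interval -1.10 to 1.39). Its subcluster led by *Thbs2* and *Comp* held 7 and 10 UMIs, at 5.91 and 1.61 CPM (-1.88, interval -3.42 to -0.25). Fibroblasts of neither program held 14 and 37 UMIs (0.52, interval -0.40 to 1.52). VECs held 7 and 5 UMIs, and T and B cells 1 and 0.

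Likeness of pattern was measured as Pearson's r of log2(CPM + 5) over 18 points, 9 populations in each of 2 libraries, among 12935 genes with at least 200 UMIs. The points share libraries and depth, so these values are a description. *Nos3* ran closest to the endothelial adhesion gene *Icam2* (0.991), *Mmrn2* (0.990) and *Ccm2l* (0.989). The 2 cyclase subunits were each other's nearest gene (0.936). *Pde5a* was nearest *Pi15* (0.971) and the L-type calcium channel gene *Cacna1c* (0.964), and *Pde3a* was nearest *Slco1c1* (0.948) and the Notch target *Hey2* (0.897). The others had weaker neighbours: *Gm15261* (0.863), *Arhgap6* and *Parva* for *Prkg1*, *Limch1* (0.859), *Zfp292* and *Proser1* for *Npr1*, *Trim3* (0.886), *Fbxw4* and *Bcas3os1* for *Npr2*, *Spata6l* (0.818), *Pth1r* and *Unc119* for *Npr3*, and *Ripor3* (0.884), *Slc38a4* and *Stau2* for *Nppc*.

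A list of 40 further genes of nitric oxide supply, peptide processing, cGMP breakdown and the targets of the kinase gave the surroundings of the 10. With at least 20 UMIs there were 32 of them in VECs, 30 in VSMCs, 20 in pericytes and 35 in fibroblasts. Past a log2 ratio of 1 were 2 higher and 4 lower in VECs, 2 and 1 in VSMCs, 4 and 2 in pericytes, and 6 and 4 in fibroblasts, beside the background shares given above. The list medians were -0.13, 0.16, -0.09 and -0.14 in that order. The gene of the list with the highest level was the caveolin *Cav1*, whose product binds and inhibits the endothelial synthase, in VECs (1186 and 754 CPM, -0.65). It was the myosin phosphatase subunit *Ppp1r12a*, a target of Prkg1, in VSMCs (960 and 721 CPM, -0.41) and in pericytes (980 and 615 CPM, -0.67).

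On the supply side, the inducible synthase *Nos2* was 0.852 and 11.3 CPM in fibroblasts (3.72). It was also higher in VECs, at 4.31 and 10.5 CPM (1.28, interval 0.51 to 2.13), and VSMCs held 1 and 17 UMIs. The arginase *Arg2*, which competes with the synthases for arginine, was 1.88 and 6.45 CPM in VSMCs (1.78) and 1.17 and 3.97 CPM in fibroblasts (1.76). VECs held 3 and 45 *Arg2* UMIs. Macrophage markers were higher in AngII+HS as well, summing to 15.9 and 54.6 CPM in fibroblasts, 9.71 and 47.5 CPM in VSMCs and 18.2 and 63.8 CPM in VECs. Their part in the *Nos2* and *Arg2* ratios was not tested. Among the phosphodiesterases, *Pde10a* had 9 UMIs in Control and 138 UMIs (286 CPM) in AngII+HS pericytes (3.25), and was 12.2 and 32.3 CPM in VSMCs (1.41). *Pde1a* was 117 and 331 CPM in pericytes (1.51), *Pde1c* 2.66 and 6.40 CPM in fibroblasts (1.27) and *Pde11a* 8.73 and 2.79 CPM in fibroblasts (-1.64). The gene of the large-conductance potassium channel, *Kcnma1*, opened by Prkg1 in smooth muscle, was 73.3 and 446 CPM in fibroblasts (2.61), where it was the most abundant gene of the list in AngII+HS but below *Itpr1* (182 CPM) and 5 others in Control, and 16.3 and 6.77 CPM in VECs (-1.27).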

How the data were processed

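Single-cell RNA was measured in pooled abdominal aorta, with 1 library per condition. The authors counted UMIs per gene and barcode with Cell Ranger (8.0.1 per the file headers, an earlier release with default settings per the study's methods) and deposited raw counts without normalization; the submitters' notes name mm10 and the study's methods GRCm39, and the defaults of these releases count intronic reads, a setting that the sources used here do not spell out. The study's own limits were applied to cells, a minimum of 500 UMIs and 200 genes and a mitochondrial share below 20%. Doublets were scored with Scrublet (scanpy 1.11.5) in place of the study's caller and removed at 0.8% per 1000 cells, 1019 Control and 4826 AngII+HS cells. The libraries were joined with Seurat 5.3.0 anchors (2000 variable genes, 30 components, Louvain resolution 0.8), and VECs, mural cells and fibroblasts were clustered again (20 components, resolution 0.4), always without the 10 genes and the 40 pathway genes. Clusters were named from fixed marker lists by a rule settled after clusters had been seen: at least 3 markers in at least 10% of cells, and no more markers of another type than of its own among the 10 leading genes.

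UMIs were summed per population and library and scaled to CPM. Intervals are exact (Poisson for levels, conditional binomial for ratios, binomial for shares of cells) at 95%, and the limit for a count of 0 is 3 counts. No test was possible, and no p-value is given. The share of all genes past a log2 ratio of 1 covers genes with at least 20 UMIs in the class. The pathway genes named are those with at least 100 UMIs in a class, a log2 ratio of at least 1 or at most -1 there and an interval on the same side of 0, and the most abundant of the list in each class. The 10 genes and all lists were chosen with earlier results of these data known. Leading genes of subclusters were named after their values had been seen. Ratios were checked on simulated data. Gene positions are those of GENCODE vM39, in which 33185 of 33696 feature IDs were found, and start-site sequences those of RefSeq, with entries for 8 of the 10 genes. TMM factors came from edgeR 4.0.16. Alternatives were no doublet removal, a stricter cell filter (1000 UMIs, 500 genes, 10% mitochondrial), resolution 1.2, no integration, clustering with the genes kept, TMM scaling, leaving mitochondrial genes out of the totals, equal weight per cell or per subtype, subtraction of the T and B cell level, and thinning to 1000 UMIs. A further 4, which leave out or add single subclusters, were chosen after seeing the data. Python 3.11.15, numpy 2.4.6, scipy 1.17.1, pandas 2.3.3, R 4.3.3 and matplotlib 3.10.9 were used. The values of a gene counted in the pathway list are not reported here.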

Additional observations from a re-analysis of the deposited data

Results flagged for a closer look

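*Pde3a* stood out because its ratios between the libraries passed a log2 ratio of 1 in opposite directions in separate populations. The log2 ratio was 1.13 in arterial-like and -2.62 in venous-like VECs, a difference of 3.75. *Nppc* did so as well, with 2.37 in LECs and -3.67 in VSMCs, a difference of 6.03. The VSMC ratio rested on 1 UMI in the AngII+HS VSMCs, and the LEC ratio was 0.15 after thinning to 1000 UMIs. With 1 library per condition, neither difference was tested.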

How the results depend on the processing

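The ratios of 87 gene and population pairs with at least 20 UMIs were computed again under 11 alternatives of processing and 4 more chosen after seeing the data, where each applied. Of 893 values, 726 fell within the reported counting interval. Of the 572 values for the 55 ratios whose interval excluded 0, 19 turned in sign, and 42 of the 55 ratios never turned. *Nos3* in VECs kept its sign in 12 of 12 alternatives (-1.34 to -0.80), *Pde3a* in arterial-like VECs in 10 of 10 (1.01 to 1.19), *Gucy1a1* in VSMCs in 11 of 11 (-0.71 to -0.54), and *Npr3* in fibroblasts of neither program in 10 of 10 (1.72 to 4.58). The last class did not hold the same cells throughout. It had 1893 and 2181 cells as reported, 716 and 1269 without doublet removal, and 1743 and 269 without integration. Over all fibroblasts the *Npr3* ratio was 0.13 without integration.

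The ratios that turned were these. Without doublet removal they were *Pde3a* in VSMCs (-0.039), in fibroblasts (0.14) and in fibroblasts of neither program (0.43), *Pde5a* in fibroblasts (-0.041), and *Prkg1* in fibroblasts of neither program (0.40). *Pde3a* in VSMCs also turned with the stricter filter (-0.12), with clustering on the genes themselves (-0.033) and without the shallow VSMC subcluster (-0.13). Without integration, *Gucy1b1* (-0.45) and *Pde5a* (-0.71) turned in fibroblasts of neither program. After thinning they were *Gucy1a1* in VECs (0.59) and LECs (0.30), *Npr1* in venous-like VECs (0.19) and fibroblasts of neither program (0.29), *Npr2* in the Pi16 program (0.22), and *Pde3a* in fibroblasts (0.11) and the Postn program (0.64). Adding the subcluster led by *Fst* and *Notch3* gave *Pde3a* in fibroblasts 0.023, and equal weight per cell gave *Prkg1* in fibroblasts of neither program 0.018. The causes were not tested.

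No share over all genes was computed for the counts of the 10 genes with an interval below or above 0. These counts moved as follows, with the reported count first. In VECs, lower (5) became 2 after thinning, 3 with equal weight per cell, 3 with free RNA subtracted and 8 with equal weight of subtypes, and higher (1) became 2 with equal weight per cell. In VSMCs, lower (5) became 8 without doublet removal and 3 after thinning, and higher (2) became 1 without doublet removal, with the stricter filter, with clustering on the genes and without the shallow subcluster, and 4 with equal weight per cell. In pericytes, lower (1) became 2 without doublet removal, with free RNA subtracted and with the *Pln* subcluster added, and higher (1) became 0 without doublet removal and after thinning and 3 with that subcluster. In fibroblasts, lower (5) became 3 without doublet removal, 2 by TMM, 1 after thinning and 3 with equal weight per cell, and higher (4) became 1 without integration, 2 after thinning and 2 with equal weight of subtypes. By TMM, the class with the highest level was the one found by CPM for 5 of the 10 genes in Control and 8 in AngII+HS. No paired analysis was possible because each condition has 1 library. A single library per condition limits every difference, and the 43 Control pericytes and 1 to 14 UMIs of *Nppc* in several classes limit the depth.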

Other observations

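*Prkg1* was also found outside the classes compared above. Neural cells held 752 CPM in Control and 803 CPM in AngII+HS (log2 ratio 0.09, interval -0.08 to 0.27). Macrophages held 223 and 23.7 CPM (-3.23, interval -3.42 to -3.04), with a UMI in 40.9% of 465 and 7.53% of 4463 cells. They differed in kind between the libraries, with 419 and 2312 cells in the cluster led by *C1qa* and *C1qb*. The cluster led by *Arg1* and *Cxcl3* had 40 and 2057 cells. VSMCs, rich in *Prkg1*, made up 52.9% of Control and 4.50% of AngII+HS cells. The part of these differences in the macrophage ratio was not tested. *Npr3* in neural cells was 29.7 and 9.69 CPM on 14 and 12 UMIs. The unnamed fibroblast subcluster led by *Fst* and *Fhl2* held *Gucy1a1* at 258 and 227 CPM, above every named fibroblast subcluster.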
